A study of Sus scrofa with 6 samples.

Results

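ZP2, ZP3, ZP4, ASTL, IZUMO1R and CD9 are the genes of the egg coat and of the oocyte surface through which sperm bind, fuse and are later shut out. They were taken by gene symbol from the table of 29861 genes deposited for porcine oocytes, in which all 6 of 6 were found. The zona pellucida is the glycoprotein coat that the growing oocyte secretes around itself, and in the pig it is built from the products of ZP2, ZP3 and ZP4. ASTL encodes ovastacin, a metalloprotease stored in the cortical granules, the secretory vesicles beneath the oocyte membrane. It is released after fertilization and cleaves ZP2, which hardens the coat against further sperm. IZUMO1R encodes JUNO, the GPI-anchored receptor on the oocyte that binds IZUMO1 of the sperm, and CD9 encodes a membrane tetraspanin needed for the fusion of mouse eggs with sperm.

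The oocytes came from abattoir ovaries of pigs, were matured in vitro within their cumulus cells and were pooled, with 2 RNA-seq samples in each of 3 groups. Control oocytes were matured without heat treatment. Heat-stressed oocytes were kept at a raised temperature for the first 24 h of culture, and NMN-supplemented oocytes received the same heat together with nicotinamide mononucleotide (NMN), a precursor of NAD, in the maturation medium. The labels of all 6 samples give the germinal vesicle stage and 24 h, whereas the methods give metaphase II, so the stage of these RNAs could not be settled here. No source says that the samples of a group came from separate collections, so the P-values measure only the spread between these samples.

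The values are FPKM, fragments assigned to a gene and scaled by transcript length and library, and the depth of each sample is unknown. From the steps between low values, 1 fragment was worth the least in the second control sample, and relative depth differed by up to 1.58-fold, with both control samples deeper than the 4 heated ones. Genes encoded by mitochondria took 61.7 to 74.7% of the summed FPKM. Scaling to the sum of the other genes was among the alternatives, with results given below, and beyond that their part was not tested. Among the marker lists for cell types, that of the oocyte had the highest sum in every sample, with BMP15 at 1606 to 1940 FPKM and GDF9 at 353 to 777 FPKM. Of the 28 cumulus and granulosa cell markers found, 6 were listed at 0 in all samples, AMH among them, and the sum over the list was 15.3 to 18.8 FPKM in control, 9.52 to 12.5 FPKM after heat stress and 7.22 to 12.7 FPKM with NMN. Most of it came from INHBA, an activin subunit gene, followed by SERPINE2 and FST, and INHBA, the only one of them tested, was called lower with NMN against control (limma, adjusted P = 0.109). The sum was thus lower in all 4 heated samples, as was INHBA, at 16.4 and 13.2 FPKM in control and 4.35 to 10.2 FPKM in the heated samples. SERPINE2 and FST overlapped between control and heated samples. The part of these markers in the change of ZP3, ZP4 and ASTL below was not tested. In pooled oocytes, fewer contributing cells and less RNA per cell cannot be told apart.

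The annotated genes were located in the Sscrofa11.1 build (susScr11), to which the authors aligned the reads. ZP2 lies at chr3:24863730-24877522 on the plus strand with 18 exons, and ZP3 at chr3:9934760-9944924 on the minus strand with 8 exons. ZP4 lies at chr14:53577138-53584544 on the plus strand with 12 exons, and its RefSeq model, like that of ZP3, is annotated as partial. ASTL lies at chr3:47058104-47071681 on the plus strand with 9 exons, IZUMO1R at chr9:26516091-26520949 on the plus strand with 5 exons and CD9 at chr5:64420177-64459783 on the minus strand with 8 exons. The end of ZP2 overlaps 110 exonic bases of TMEM159, annotated as a long non-coding RNA on the other strand. The library kit did not mark strand, so reads from that overlap cannot be assigned to either gene. TMEM159 was measured at 4.36 to 6.83 FPKM and was not called in any of the 3 comparisons, and its part in the ZP2 values was not tested.

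In mice, the zona genes are switched on together in growing oocytes by FIGLA, a basic helix-loop-helix factor that binds E-boxes. The 250 bases upstream of the annotated starts are shown for the 3 zona genes and for ASTL, because these genes share the oocyte but differ in this element. Capitals mark each E-box, searched as CANNTG, a pattern that reads the same on both strands.
ZP2 upstream, chr3:24863480-24863729, plus strand: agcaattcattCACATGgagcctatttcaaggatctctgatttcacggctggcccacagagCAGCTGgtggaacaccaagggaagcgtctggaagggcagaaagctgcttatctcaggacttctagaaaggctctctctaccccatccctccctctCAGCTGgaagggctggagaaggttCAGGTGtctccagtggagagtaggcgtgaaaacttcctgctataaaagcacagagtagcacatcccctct
ZP3 upstream, chr3:9944925-9945174, minus strand: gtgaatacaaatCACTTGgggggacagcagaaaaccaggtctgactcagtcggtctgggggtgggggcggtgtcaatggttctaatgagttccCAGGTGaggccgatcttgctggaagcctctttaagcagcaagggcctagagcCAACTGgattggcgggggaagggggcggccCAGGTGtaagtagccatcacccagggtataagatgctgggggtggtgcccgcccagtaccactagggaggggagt
ZP4 upstream, chr14:53576888-53577137, plus strand: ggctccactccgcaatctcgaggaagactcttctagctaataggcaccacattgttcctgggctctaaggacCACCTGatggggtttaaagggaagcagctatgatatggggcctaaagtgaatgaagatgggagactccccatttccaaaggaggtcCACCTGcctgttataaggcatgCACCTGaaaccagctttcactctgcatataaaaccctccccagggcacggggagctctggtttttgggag
ASTL upstream, chr3:47057854-47058103, plus strand: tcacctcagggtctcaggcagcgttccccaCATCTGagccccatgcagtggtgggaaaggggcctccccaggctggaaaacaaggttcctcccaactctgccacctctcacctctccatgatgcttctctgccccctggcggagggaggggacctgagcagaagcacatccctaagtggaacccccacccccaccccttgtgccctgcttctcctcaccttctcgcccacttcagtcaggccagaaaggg
The sequences were read from the RefSeq assembly of Sscrofa11.1. Upstream of ZP2 and of ZP3 there were 4 E-boxes each, and upstream of ZP4 there were 3. ASTL and CD9 each had 1 in the same window and IZUMO1R had 2. At least 3 E-boxes occurred in 10.6% and at least 4 in 3.3% of the 19544 windows of the same length searched, and at least 1 in 62.2%. In each zona gene an E-box began at a position from −75 to −70, counted from the annotated start. This interval was read from these same sequences, and its share over all windows was not counted. The models of ZP3 and ZP4 are annotated as partial, so their starts, and these distances, are uncertain. The TATA box, searched as TATAAA on both strands, was found at −30 in ZP2 and at −44 in ZP4 and in 9.83% of all windows. The element TAATTG bound by NOBOX, another oocyte transcription factor, was found in none of the 6 windows and in 6% of all windows.

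**Figure D1:**
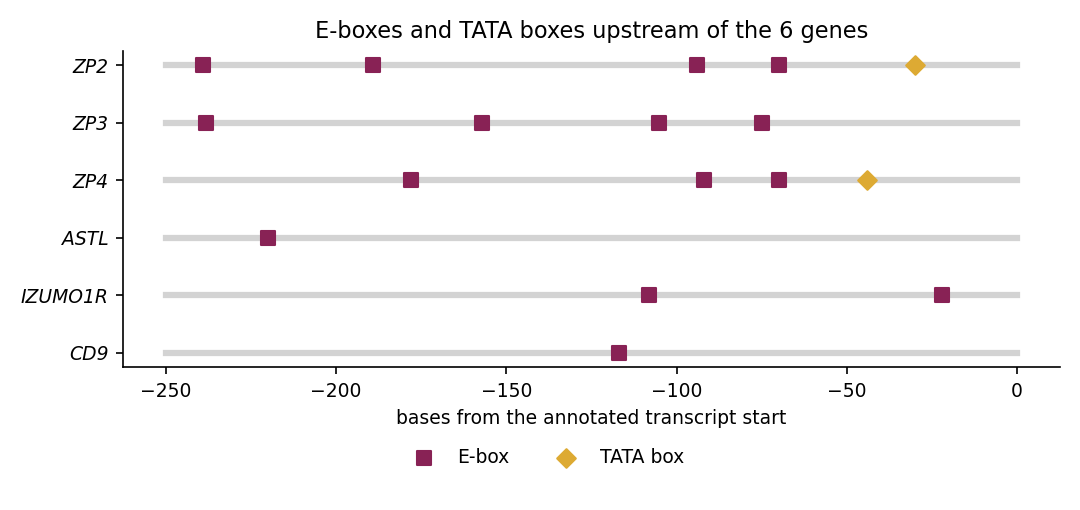
Positions of E-boxes (squares) and TATA boxes (diamonds) in the 250 bases before the annotated transcript start of each of the 6 genes, with distance from the start in bases on the horizontal axis. ZP2, ZP3 and ZP4 each have an E-box that begins between −75 and −70, an interval read from these same sequences. ASTL and CD9 have a single E-box farther upstream.

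The zona transcripts as annotated also end soon after their stop codons. Since the models of ZP3 and ZP4 are annotated as partial, the lengths of their ends are uncertain as well. The untranslated 3′ ends of ZP2, ZP3 and ZP4 span 52, 14 and 40 bases and that of IZUMO1R spans 89 bases, against a median of 811 bases over 19547 genes. ASTL and CD9 have longer ones, of 1017 and 434 bases. The last 30 bases of ZP3, ZP4 and ASTL are shown as examples that carry the signal for poly(A) addition, AATAAA, which is in capitals. Those of CD9 carry it as well, ZP2 holds it farther from the end within its last 100 bases, and IZUMO1R lacks it there.
ZP3 end, chr3:9934760-9934789, minus strand: gtctgcttcccAATAAAaggagaaacatga
ZP4 end, chr14:53584515-53584544, plus strand: ccaaatgtgtcAATAAAaccAATAAAacaa
ASTL end, chr3:47071652-47071681, plus strand: aggcagaAATAAAattgggggcttgctcta
In ZP3 the AATAAA overlaps the stop codon itself, and ZP4 carries the signal 2 times. The last 100 bases of 53.3% of transcripts held this signal. TTTTAT, a letter pattern of the cytoplasmic polyadenylation element through which stored maternal mRNAs are activated during maturation, was found in the last 100 bases of none of the 6 genes and in 12.1% of transcripts. For ZP2, ZP3, ZP4 and IZUMO1R this window is longer than the untranslated end and reaches into coding bases. The absence there therefore cannot be set against the share over all transcripts.

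In control oocytes ASTL was the most abundant of the 6 transcripts, at 30.4 and 39.6 FPKM in the first and second sample, and it ranked 264 among all 29861 genes. ZP3 followed at 24.7 and 26.3 FPKM (rank 370) and ZP4 at 22.1 and 19.5 FPKM (rank 440). The samples of these 3 genes did not overlap, so their order held in both control samples. ZP2 was lower, at 10.6 and 11.3 FPKM (rank 839), and it lay within the range of IZUMO1R, at 11.6 and 7.68 FPKM (rank 939). CD9 was listed at 0 and 0.0170 FPKM, and with a highest value of 0.0170 FPKM over the 6 samples it was left out of the tests. CD81, the tetraspanin closest to CD9 in its role at fertilization, was found at 2.24 to 3.84 FPKM. The zona genes lay far below the oocyte-secreted growth factor genes BMP15 and GDF9 on this scale per length.

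**Figure D2:**
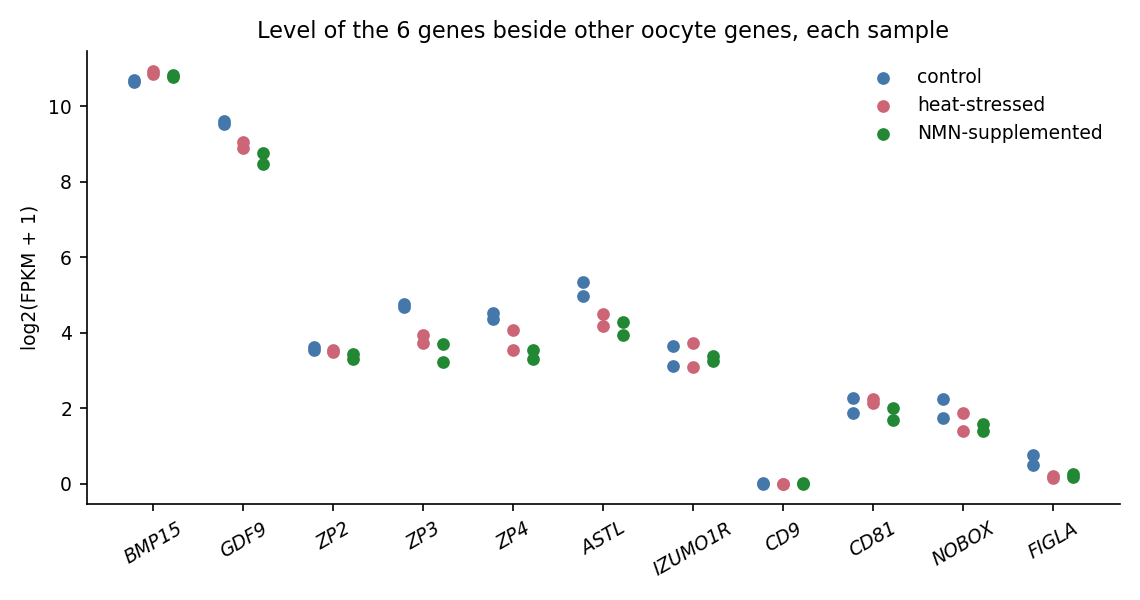
Level of each of the 6 genes beside BMP15, GDF9, CD81 and the transcription factor genes NOBOX and FIGLA, as log2(FPKM + 1) on the vertical axis, with 1 point per sample and 2 samples per group. ASTL, ZP3 and ZP4 are highest in control samples, and CD9 lies at the bottom in all 6.

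To see what heat did to the transcripts of the coat and the oocyte surface, heat-stressed oocytes were compared with controls. ZP3, ZP4 and ASTL were lower after heat stress, while ZP2 and IZUMO1R did not pass the test. Thus 3 of the 5 tested genes were lower at an unadjusted P under 0.05, against 10.1% of the 4713 genes tested. The same 3 were lower without overlap of the groups' samples, against 23.2% of all genes tested. The median log2 fold change of the 5 was −0.65, against 0.049 over all genes tested. No gene of the table passed an adjusted P under 0.05 in this comparison, in which 1074 genes (22.8%) passed unadjusted, so these calls do not hold after correction over all genes. The first heat-stressed sample held 13.9% of its summed FPKM in LOC100513953, which was listed at 0 in the others, and scaling to the non-mitochondrial sum, which includes this gene, gave 562 calls, of which 528 were lower, against 476 lower among the 1074. With that gene left out of the sum 821 genes were called, 488 of them lower. ZP3, ZP4 and ASTL were called lower under both scalings. The fold changes were computed with limma on log2(FPKM + 1), which makes the changes of low genes smaller than their FPKM ratios.

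ZP3, which encodes a structural filament protein of the coat, was measured at 24.7 and 26.3 FPKM in controls and at 12.3 and 14.2 FPKM after heat stress. The samples of the groups did not overlap, and the mean was reduced from 25.5 ± 1.11 to 13.3 ± 1.36 FPKM (SD, n = 2 each). This was a log2 fold change of −0.89 ± 0.18 (SE; limma, adjusted P = 0.118). ZP4, which likewise encodes a structural protein of the coat, was measured at 22.1 and 19.5 FPKM in controls and at 10.5 and 15.7 FPKM after heat stress. Its mean fell from 20.8 ± 1.89 to 13.1 ± 3.63 FPKM (SD, n = 2 each), with a log2 fold change of −0.65 ± 0.21 (SE; limma, adjusted P = 0.176). This call depended on single libraries: without the first heat-stressed sample the log2 fold change was −0.39, without the first control sample it was −0.56, and neither passed an unadjusted P under 0.05.

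ASTL was measured at 30.4 and 39.6 FPKM in controls and at 17.0 and 21.7 FPKM after heat stress. Both heat-stressed samples lay below both controls, with means of 35.0 ± 6.51 and 19.4 ± 3.26 FPKM (SD, n = 2 each). This was a log2 fold change of −0.82 ± 0.21 (SE; limma, adjusted P = 0.137). The protease of the cortical granules and the coat genes ZP3 and ZP4 were therefore lower in the same samples, whereas the substrate of that protease was not called.

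ZP2, the zona protein that ovastacin cleaves, was measured at 10.6 and 11.3 FPKM in controls and at 10.6 and 10.2 FPKM after heat stress. The groups overlapped, and the log2 fold change was −0.064 with a 95% interval from −0.34 to 0.21 (limma, adjusted P = 0.739). IZUMO1R was measured at 11.6 and 7.68 FPKM in controls and at 7.46 and 12.1 FPKM after heat stress. Each group held a high and a low sample, and the log2 fold change was 0.013 with a 95% interval from −0.66 to 0.69 (limma, adjusted P = 0.979), a direction that flipped with quantile normalization or with scaling to the non-mitochondrial sum. For IZUMO1R the interval includes changes as large as that of ZP4, whereas for ZP2 it does not reach the point estimates of ZP3, ZP4 or ASTL. CD9 was listed at 0 in both heat-stressed samples.

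**Figure D3:**
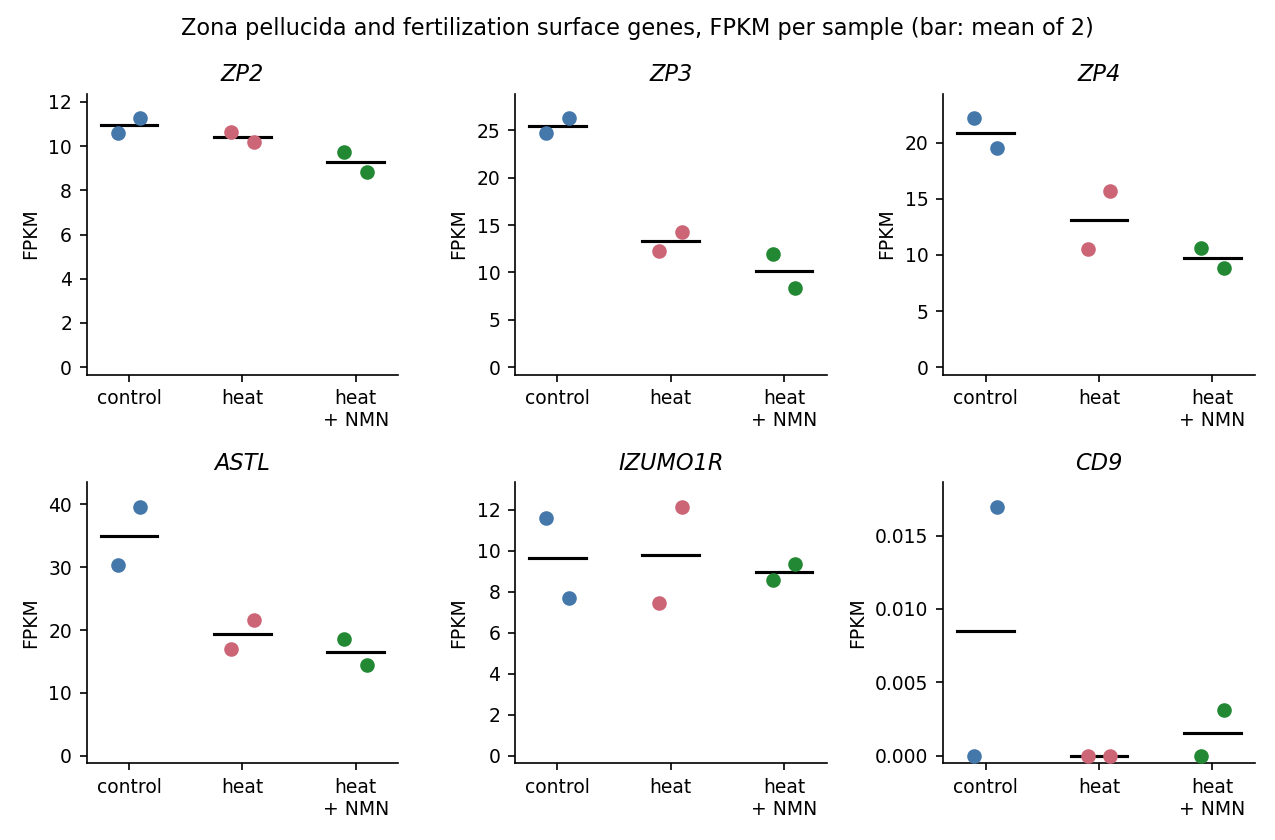
FPKM of each of the 6 genes in each sample, with 1 panel per gene, points for the 2 samples of a group and a bar at their mean. For ZP3, ZP4 and ASTL all 4 heated samples lie below both control samples, for ZP2 and IZUMO1R control and heat-stressed samples overlap, and CD9 does not exceed 0.0170 FPKM.

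To ask whether NMN moved these transcripts back towards the control level, NMN-supplemented oocytes were compared with heat-stressed ones. None of the 5 tested genes passed an unadjusted P under 0.05 with limma, against 13.6% of the 4713 genes tested (6.45% in the lower direction), and none had a mean above its heat-stressed mean in the FPKM as deposited. Over all genes tested, 0 passed an adjusted P under 0.05 with limma, and 641 passed unadjusted. ZP2 and ZP3 were lower without overlap of the groups' samples, 2 of 5 against 17.6% of all genes tested. The 5 log2 fold changes had a median of −0.22, against 0.078 over all genes tested.

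ZP3 was measured at 11.9 and 8.38 FPKM in NMN-supplemented oocytes, below both heat-stressed samples, with a mean of 10.2 ± 2.51 FPKM (SD, n = 2). The log2 fold change was −0.37 with a 95% interval from −0.82 to 0.084 (limma, adjusted P = 0.390). ZP4 was measured at 10.6 and 8.86 FPKM, with a mean of 9.74 ± 1.25 FPKM (SD, n = 2), and a sample of this group lay above the lower heat-stressed sample. Its log2 fold change was −0.37 with an interval from −0.89 to 0.14 (limma, adjusted P = 0.413). Scaled to the same non-mitochondrial sum, the log2 fold changes of ZP3 and ZP4 were −0.020 and −0.029, and with LOC100513953 left out of that sum they were −0.32 for both genes. Without the first NMN-supplemented sample ZP3 was lower at an unadjusted P under 0.05 (log2 fold change −0.60), as was ZP4 without the first heat-stressed sample (−0.64).

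ASTL was measured at 18.6 and 14.4 FPKM in NMN-supplemented oocytes, with a mean of 16.5 ± 2.97 FPKM (SD, n = 2), and overlapped the heat-stressed samples. Its log2 fold change was −0.22 with an interval from −0.73 to 0.30 (limma, adjusted P = 0.597). ZP2 was measured at 9.71 and 8.83 FPKM, with a mean of 9.27 ± 0.625 FPKM (SD, n = 2), below both heat-stressed samples by a small margin. Its log2 fold change was −0.15 with an interval from −0.43 to 0.12 (limma, adjusted P = 0.500). IZUMO1R was measured at 8.57 and 9.34 FPKM, between the 2 heat-stressed samples, with a log2 fold change of −0.084 and an interval from −0.76 to 0.59 (limma, adjusted P = 0.891). The signs for ASTL, ZP2 and IZUMO1R flipped when samples were scaled to the same non-mitochondrial sum, but with LOC100513953 left out of that sum they kept their signs, with log2 fold changes of −0.17, −0.10 and −0.036. CD9 was listed at 0 and 0.00311 FPKM.

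Compared to the controls, NMN-supplemented oocytes held less ZP3, ZP4 and ASTL transcript. Here 3 of the 5 tested genes were lower at an adjusted P under 0.05, against 9.17% of the 4713 genes tested, and the same 3 at an unadjusted P under 0.05, against 15.7% (41.3% in either direction). Of the 5, 4 were lower with no overlap between the samples, against 26.4%. The log2 fold change was −1.26 ± 0.18 for ZP3 (SE; limma, adjusted P = 0.021). It was −1.04 ± 0.21 for ASTL (SE; limma, adjusted P = 0.0294) and −1.02 ± 0.21 for ZP4 (SE; limma, adjusted P = 0.0302), and the samples of the groups did not overlap for any of these genes. ZP2 had a log2 fold change of −0.22 with an interval from −0.49 to 0.058 (limma, adjusted P = 0.193), and both of its samples lay below both controls. IZUMO1R had a log2 fold change of −0.071 with an interval from −0.74 to 0.60 (limma, adjusted P = 0.861). Heat-stressed and NMN-supplemented oocytes were both set against the same 2 control samples, so these values and those after heat alone are not independent. All 4 heated samples lay below both control samples for ZP3, ZP4 and ASTL, as they did for 791 of the genes tested (16.8%).

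**Figure D4:**
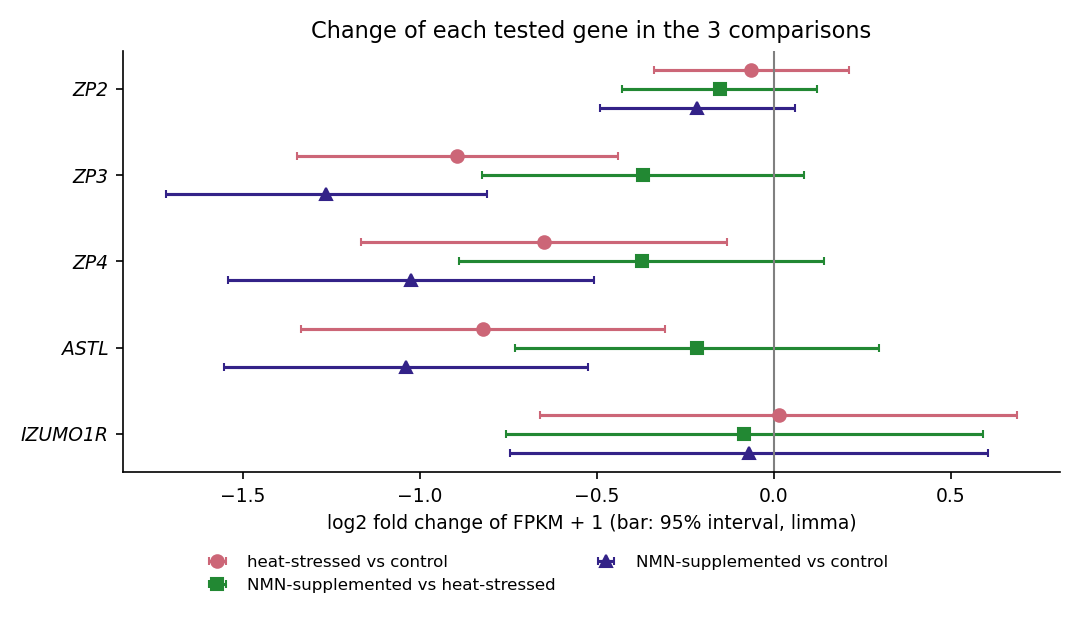
Log2 fold change of FPKM + 1 for the 5 tested genes in the 3 comparisons, with limma's 95% interval as bars and 0 as the vertical line. The intervals of ZP3, ZP4 and ASTL lie below 0 in both comparisons with control and include 0 between NMN-supplemented and heat-stressed oocytes, and those of ZP2 and IZUMO1R include 0 in all 3.

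Because the zona is assembled from ZP2, ZP3 and ZP4 together, their proportions were compared within each sample, which removes any scaling of a whole sample. The sum of the 3 was 57.5 and 57.0 FPKM in controls, 33.5 and 40.1 FPKM after heat stress and 32.3 and 26.1 FPKM with NMN. The summed FPKM of the coat transcripts was thus lower in all 4 heated samples, while the share of ZP2 in it was larger. Unlike the shares, this sum depends on how each sample is scaled. ZP2 made up 18.5 and 19.7% of the sum in controls, 31.8 and 25.4% after heat stress and 30.1 and 33.9% with NMN.

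The ratio of ZP3 to ZP2 was 2.33 in both control samples, 1.16 and 1.40 after heat stress and 1.23 and 0.949 with NMN. The ratio of ZP4 to ZP2 was 2.09 and 1.73 in controls, 0.991 and 1.54 after heat stress and 1.09 and 1.003 with NMN. For both ratios the 4 heated samples lay below the controls, with an exact two-sided permutation P of 0.333 in each comparison with control, which is the smallest that 2 samples against 2 can give. The ratio of ZP3 to ZP4 overlapped between control (1.12 and 1.35) and heat-stressed oocytes (1.17 and 0.908). The ratio of ASTL to ZP2 was 2.86 and 3.52 in controls, 1.60 and 2.13 after heat stress and 1.91 and 1.63 with NMN. It was lower in the heated samples in the same way, with the same exact permutation P of 0.333 in each comparison with control.

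**Figure D5:**
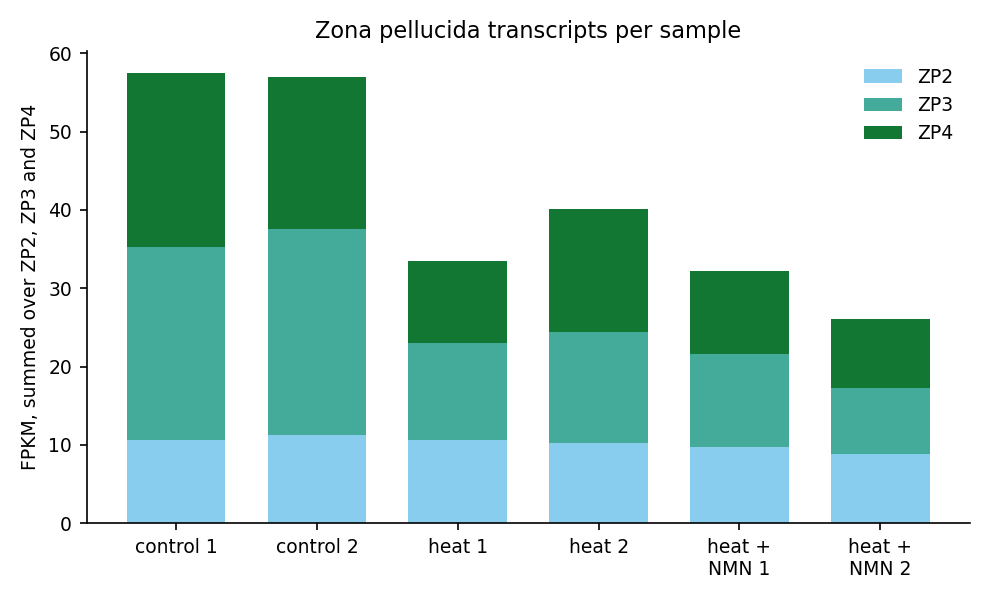
FPKM of ZP2, ZP3 and ZP4 stacked for each of the 6 samples, with the vertical axis starting at 0. The stacks reach 57.0 to 57.5 FPKM in control and 26.1 to 40.1 FPKM in the heated samples, while the ZP2 segment stays between 8.83 and 11.3 FPKM.

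The genes whose pattern over the 6 samples was most like that of each member were found by Pearson's r of log2(FPKM + 1) among 4712 genes, which describes 6 samples in 3 groups and carries no test. For ZP3 the closest was GDF9, which encodes a growth factor that the oocyte sends to its cumulus cells (r = 0.995). GDF9 was measured at 732 and 777 FPKM in controls, 477 and 532 FPKM after heat stress and 435 and 353 FPKM with NMN. It was lower after heat stress with a log2 fold change of −0.58 (limma, adjusted P = 0.137), whereas its partner BMP15 was measured at 1606 to 1646 FPKM in control and at 1751 to 1940 FPKM in the heated samples. AQP6, a water channel gene, was also among the genes most like ZP3 and was the closest to ASTL (r = 0.995), followed by NDUFA6 and LOC110258853. ZP4 was most like LOC110255674 (r = 0.998), C1H9orf78 and JOSD1, ZP2 most like IQCC (r = 0.991), CHMP3 and LOC106507930, and IZUMO1R most like SSR1 (r = 0.966), TOB2 and MMD. Among the members r was 0.953 for ZP3 and ZP4 and 0.975 for ZP3 and ASTL, against 0.106 for ZP3 and IZUMO1R. For ZP2 it was 0.849 with ZP3, 0.799 with ASTL and 0.740 with ZP4.

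Of 10 genes for transcription factors and RNA-binding proteins linked to the zona genes, 9 were in the table and 4 could be tested. None passed after heat stress with limma, against 22.8% of all genes tested. Their median log2 fold change was −0.26, against 0.049 over all genes tested. FIGLA was measured below the minimum level, at 0.415 and 0.676 FPKM in controls, 0.113 and 0.155 FPKM after heat stress and 0.125 and 0.184 FPKM with NMN. All 4 heated samples lay below both controls, as they did for 16.8% of the genes tested at the main minimum. With a minimum of 0.1 FPKM, FIGLA passed an unadjusted P under 0.05 after heat stress, with a log2 fold change of −0.44 (limma, adjusted P = 0.199). With NMN against control it passed as well, with −0.42 (limma, adjusted P = 0.0848). At that minimum 1865 of 11651 genes passed after heat stress and 3236 with NMN against control. TCF3, another gene of this list, passed in none of the 3 comparisons at that minimum. NOBOX was measured at 2.31 and 3.75 FPKM in controls, 1.63 and 2.68 FPKM after heat stress and 2.01 and 1.63 FPKM with NMN and was not called (limma, adjusted P = 0.424 after heat stress). YBX2, an RNA-binding protein of stored maternal mRNA, fell with NMN from 4.71 to 1.96 FPKM compared to heat alone (limma, adjusted P = 0.222). Against its control level of 6.68 FPKM it had a log2 fold change of −1.36 (limma, adjusted P = 0.021). It was the only one of the 4 called in either comparison, against 13.6% of all genes tested compared to heat alone and 41.3% against control.

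Among 24 genes for the processing and glycosylation of zona proteins, 9 were tested, and 4 were higher and 2 lower after heat stress, where 22.8% of all genes tested were called. FURIN, a convertase of the kind that releases zona proteins from their membrane anchor, fell from a mean of 3.42 to 2.09 FPKM (limma, adjusted P = 0.181). STT3B, a catalytic subunit of the N-glycosylation complex, rose from 2.38 to 3.42 FPKM (limma, adjusted P = 0.164), and DPAGT1, the first enzyme of the same pathway, fell from 1.997 to 1.30 FPKM (limma, adjusted P = 0.190). With NMN, compared to heat alone, 1 of the 9 was called, CALR, an ER chaperone of glycoproteins, which fell from 7.61 to 2.81 FPKM (limma, adjusted P = 0.289) and was not called without the second heat-stressed or the second NMN-supplemented sample. Of all genes tested, 13.6% were called with NMN compared to heat alone. Against control, where 41.3% of all genes tested were called, 4 of the 9 were higher and 2 lower with NMN. TMED10, a cargo receptor of the secretory pathway, rose there from 5.71 to 9.11 FPKM (limma, adjusted P = 0.0347). After heat stress the 9 had a median log2 fold change of 0.28, against 0.049 over all genes tested. Under scaling to the non-mitochondrial sum 1 of the 9 was called after heat stress in place of 6, and 3 with LOC100513953 left out of that sum. Only 1 was called without the first or the second control sample or without the second heat-stressed sample, and 2 without the first.

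The partners of JUNO and CD9 on the oocyte were described by 18 genes for sperm-egg adhesion and fusion, of which 6 were tested. After heat stress 3 were higher and 1 lower, against 22.8% of all genes called. Compared to heat alone none was called with NMN, against 13.6% of all genes, though 1 was without either the first or the second control sample. ITGA6, an integrin subunit of the egg membrane, rose from 4.52 to 6.94 FPKM (limma, adjusted P = 0.127) and reached 8.81 FPKM in NMN-supplemented oocytes, and ITGB1 rose from 1.01 to 1.57 FPKM (limma, adjusted P = 0.171). The gene that fell was TLE6, which belongs to the subcortical maternal complex rather than to the membrane, from 3.12 to 1.73 FPKM (limma, adjusted P = 0.127). Of 5 tested tetraspanin genes 1 was called after heat stress, a share close to the 22.8% of all genes. It was TSPAN14, which fell from 2.35 to 1.47 FPKM (limma, adjusted P = 0.148). Against control, NMN-supplemented oocytes had 3 adhesion genes higher and 1 lower, and 1 tetraspanin gene higher and 1 lower, against 41.3% of all genes called. RDX, which links the membrane to actin, rose there from 1.51 to 3.04 FPKM (limma, adjusted P = 0.046), and TSPAN3 rose from 43.9 to 55.2 FPKM (limma, adjusted P = 0.0908). The median log2 fold changes after heat stress were 0.24 for the 6 adhesion genes and 0.079 for the 5 tetraspanin genes. The non-mitochondrial scaling left 1 of the adhesion genes and 0 of the tetraspanin genes called with limma after heat stress, and 2 adhesion genes with LOC100513953 left out of the sum. Without the second control or the second heat-stressed sample 2 adhesion genes were called, and without the first control or the second heat-stressed sample no tetraspanin gene was.

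JUNO is held in the membrane by a GPI anchor, and of 30 genes for folate receptors and GPI anchoring 8 were tested, and 1 was higher and 1 lower after heat stress, against 22.8% of all genes called. PIGA, which starts the synthesis of the anchor, rose from 3.98 to 6.13 FPKM (limma, adjusted P = 0.176), and PIGM, a mannosyltransferase of the same pathway, fell from 8.22 to 4.55 FPKM (limma, adjusted P = 0.142). Compared to heat alone, 13.6% of all genes tested were called with NMN. PIGC was measured at 13.3 and 8.61 FPKM after heat stress and at 2.77 and 3.65 FPKM with NMN. It was the only one of the 8 called between these groups (limma, adjusted P = 0.222), and 2 were called without the first or the second heat-stressed sample. Against control 1 was higher and 3 were lower with NMN, a share near the 41.3% of all genes called, and 2 were called without the second control or either of the NMN-supplemented samples. After heat stress the 8 had a median log2 fold change of −0.055. Without the first control sample 0 of the 8 were called after heat stress with limma, and 1 without the second control or the second heat-stressed sample.

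Ovastacin leaves the oocyte by exocytosis of the cortical granules, and of 57 genes for their cargo and release 15 were tested. After heat stress 3 were higher and 1 was lower, and 11 were not called, a share near the 22.8% of all genes called, and their median log2 fold change was 0.095. Compared to heat alone 1 was higher and 1 lower with NMN, and compared to control 4 were higher and 2 lower, against 13.6% and 41.3% of all genes. STX3, another SNARE gene, was the one that rose with NMN compared to heat alone, from 8.95 to 11.2 FPKM (limma, adjusted P = 0.360). PADI6, an oocyte protein of cytoplasmic lattices, fell from 9.36 to 4.68 FPKM (limma, adjusted P = 0.154) and further to 2.01 FPKM in NMN-supplemented oocytes (limma, adjusted P = 0.274). VAMP7 and SNAP23, of the SNARE machinery that fuses vesicles with membranes, rose from 5.12 to 7.35 FPKM (limma, adjusted P = 0.155) and from 8.64 to 11.9 FPKM (limma, adjusted P = 0.195). Without the first heat-stressed sample none of the 15 was called after heat stress with limma, 1 was without the first control sample and 2 without the second. Under scaling to the non-mitochondrial sum 1 was called, and 3 with LOC100513953 left out of that sum. Of 8 genes for other astacin proteases and for protease inhibitors 2 were tested. CST3, a cystatin, fell from 1.76 to 1.15 FPKM (limma, adjusted P = 0.206), whereas MEP1B, a meprin protease, rose from 1.93 to 2.70 FPKM (limma, adjusted P = 0.216). Neither was called at an unadjusted P under 0.05 when any single sample was left out.

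The sperm-side partners of these genes were at or near 0, with 16 genes found, none tested and a sum of 0.164 to 0.910 FPKM per sample. IZUMO1, the sperm ligand of JUNO, was listed at 0 in all 6 samples. The 4 relatives with a zona domain that were in the table, UMOD, OIT3, GP2 and ZPLD1, summed to at most 0.0304 FPKM. Of 21 tested oocyte markers 1 was higher and 3 were lower after heat stress, where 10.1% of all genes were lower. Compared to heat alone 1 was higher and 3 were lower with NMN, against 6.45% of all genes lower, and compared to control 2 were higher and 8 lower, against 15.7%. ZAR1, which stores maternal mRNA, fell from 20.5 FPKM in control to 3.57 FPKM with NMN (limma, adjusted P = 0.0202) and NPM2, a histone chaperone of the egg, from 1.67 to 0.266 FPKM (limma, adjusted P = 0.021). NLRP2 fell from 5.66 FPKM after heat stress to 3.08 FPKM with NMN (limma, adjusted P = 0.222). WEE2, a kinase that holds meiotic arrest, rose from 146 FPKM in control to 250.1 FPKM with NMN (limma, adjusted P = 0.0218). MOS, after BMP15, was the most abundant of these markers. Blood and immune markers, led by PECAM1, CD68 and CSF1R, summed to at most 1.12 FPKM, and none of them was tested.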

How the data were processed

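Purified mRNA of porcine oocytes was sequenced in 6 samples, which fall by label into 3 groups of 2. The methods state that the authors trimmed reads with cutadapt and aligned them to susScr11 with tophat2, and the submitters' processing notes name Cufflinks 2.2.1, Cuffnorm and Cuffdiff. The authors deposited FPKM per gene and sample. The authors' own log2 fold changes, P-values and q-values between groups were not used. FPKM was transformed as log2(FPKM + 1), genes with a mean of at least 1 FPKM over the 6 samples were tested (4713), and the 3 groups were fitted together by limma (version 3.58.1; R version 4.3.3), whose empirical Bayes step allowed a variance trend. The Benjamini-Hochberg adjustment ran over all genes tested, and calls are at an unadjusted P under 0.05 unless stated. The script was tested on simulated data. Other steps used Python 3.11.15, pandas 2.3.3, scipy 1.17.1 and matplotlib 3.10.9. The members and gene lists were chosen with earlier results of these data known. Named were all 6 members, from each list and comparison up to 3 genes with a P under 0.05, smallest first, the 3 genes most like each member (1 of them is not reported here), and the marker and reference genes. FIGLA, IZUMO1, NOBOX, CD81, TMEM159 and the zona-domain relatives were chosen for their known roles or position. The alternatives were another pseudocount, minimum level, normalization or scaling, no variance trend, only the compared groups, a replicate block and leaving out each sample.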

Additional observations from a re-analysis of the deposited data

How the results depend on the processing

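With 2 samples per group and no read counts, the depth behind each FPKM is unknown, and small differences of ZP2 or IZUMO1R could not be detected. ZP3 and ASTL were called lower after heat stress and in NMN-supplemented oocytes against control in 17 of 17 alternatives, and ZP4 in 15 of 17 and 17 of 17. The alternatives are not independent of each other. Those of minimum level, variance trend, compared groups and replicate block left the log2 fold changes after heat stress as they were. For ASTL, leaving out each sample in turn gave log2 fold changes from −1.01 to −0.64 after heat stress. After heat stress, leaving out each sample in turn gave log2 fold changes from −0.92 to −0.39 for ZP4, which lost its call without the first control or the first heat-stressed sample, and from −0.30 to 0.33 for IZUMO1R. IZUMO1R also reversed to −0.0074 with quantile normalization, to −0.30 with scaling to the non-mitochondrial sum, and to −0.020 with that scaling without LOC100513953, an alternative chosen after seeing the data. Between NMN-supplemented and heat-stressed oocytes, leaving out samples gave 0 to 1 members called, with ranges from −0.60 to −0.14 for ZP3, from −0.64 to −0.11 for ZP4 and from −0.40 to 0.23 for IZUMO1R, from −0.39 to −0.045 for ASTL and from −0.21 to −0.091 for ZP2. There the non-mitochondrial scaling reversed ZP2 to 0.19, ASTL to 0.14 and IZUMO1R to 0.25, whereas without LOC100513953 in the sum they were −0.10, −0.17 and −0.036. Against control, ZP2 passed the test in NMN-supplemented oocytes with quantile normalization (−0.31), and IZUMO1R ranged from −0.34 to 0.20 with samples left out. The cause of these changes was not tested.

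The median log2 fold change of all genes tested moved under the non-mitochondrial scaling from 0.049 to −0.22 after heat stress and from 0.078 to 0.35 between NMN-supplemented and heat-stressed oocytes, and the genes called numbered 562 in place of 1074, 269 in place of 641 and, against control, 789 in place of 1948. With LOC100513953 left out of that sum the medians were 0.021 and 0.12 and the calls 821, 520 and 1757. With a minimum of 0.1, none or 5 FPKM, 1865, 2388 and 468 genes were called after heat stress (11651, 20552 and 1672 tested), 1161, 1557 and 266 between NMN-supplemented and heat-stressed oocytes, and 3236, 3700 and 791 against control. Without the second control sample 648 genes were called after heat stress. Between NMN-supplemented and heat-stressed oocytes 327 and 383 were called without the first or second NMN-supplemented sample and 418 without the first heat-stressed sample, and 1233 against control without the first NMN-supplemented sample.

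Samples with the same number deviated from their groups' means with correlations of −0.032, 0.0080 and −0.014 between the groups. These values cannot show whether samples with the same number were collected or run together. The replicate block left the log2 fold changes as they were and changed no call of a member. With it, ZP3, ASTL and ZP4 had P-values of 0.0074, 0.0146 and 0.0382 after heat stress (limma).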
